A study of Mus musculus with 83 samples.

Results

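Fragments of the 5 small nuclear RNAs (snRNAs) of the major spliceosome, U1, U2, U4, U5 and U6, were examined in small RNA-seq of mouse embryonic stem cells (ESCs) from which the DNA methyltransferase gene *Dnmt1* was deleted. Members were all features of the deposited table named exactly U1, U2, U4, U5 or U6, which came to 1246 of 32101 features (936 U6, 206 U1, 51 U2, 43 U4 and 10 U5 copies). Values are RPM, reads per 1000000 reads of a library, and the copies of a type were also summed to 1 level per type and library. The 36 libraries of the time course came from ESCs with *Dnmt1* loxP/loxP alleles, titled control or DNMT1KO (Dnmt1 KO below), with 3 libraries per genotype on days 1, 3, 6, 9, 11 and 25. In the Dnmt1 KO cells the alleles were deleted through tamoxifen-induced Cre, so that controls and Dnmt1 KO share the floxed alleles; how the controls were treated is not given in the sources used here. The labels give the strain as E14, whereas the study's methods describe a C57BL/6 line grown in serum and LIF with or without feeder cells, and this difference was not resolved. A further 8 libraries hold RNA from an immunoprecipitation of AGO2, an Argonaute protein and carrier of miRNAs (4 control, 4 Dnmt1 KO). The study's Results section places it on day 9 after deletion, and the labels state no day. Another 4 libraries hold primordial germ cells (PGCs) of C57BL/6 embryos (C57BL/6J in the study's methods) sorted by an Oct4-GFP reporter, 1 library each of E13.5 and E14.5 females and males. Groups followed the titles: in the AGO2 libraries every genotype tag says the opposite of the title, so that the direction of any genotype difference there rests on the titles alone.

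The spliceosome removes introns from pre-mRNA. U1 pairs with the 5′ splice site and U2 with the branch site, after which U4, U5 and U6 join as a tri-snRNP. U4 holds U6 paired and inactive until it is released, U6 then forms the catalytic core with U2, and a loop of U5 holds the exon ends for joining. U1, U2, U4 and U5 are bound by a ring of Sm proteins at a short U-rich site, whereas U6 carries LSm proteins at its 3′ end. Mammalian genomes hold a few functional genes for each snRNA beside many copies that are pseudogenes. In a library of RNA of 20 to 24 nt, reads at these genes are pieces of the full-length RNAs, and a level of such pieces is not a level of the intact snRNA.

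Library totals ran from 521066 to 6239009 reads in the time course, with day 25 the shallowest (521066 to 815523 reads), from 1152390 to 25423000 in AGO2 and from 1734576 to 3435993 in the PGCs. In all 36 replicate pairs of the time course the libraries were further apart than counting error (chi-square of 1.62 to 18.3 per feature). The labels do not say that replicates were separate cultures, so p-values measure only the spread between these libraries. All 12 ESC marker miRNAs (miR-290 and miR-302 clusters) were detected, with sums of 116832 to 123978 RPM in day 1 controls. Of 8 fibroblast or feeder markers 7 are in the table, 6 of them reached 10 RPM and *Mir199a-1* was at 0. Reads over *Dnmt1* itself lay at 46.0 to 54.9 RPM in controls and 36.6 to 47.9 RPM in Dnmt1 KO on day 1, and at 48.2 to 56.5 and 48.8 to 63.0 RPM on day 9. They cover the whole gene span, so they do not check the deletion.

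Because the copies of a type share long stretches, the sequences decide what the table can hold for each of them. Copies that reached 10 RPM in at least 3 of the 36 libraries came to 7 of U5, 3 of U2 and 2 of U4, and are numbered by mean level within their type. U5 copies 1, 2 and 3 lie on the plus strand of chromosome 4, and copies 4 and 6 on the minus strand of chromosome 9. Copies 5 and 7 lie on chromosome 1, copy 5 within an exon of *B930036N10Rik* of the same strand and copy 7 in an intron of *Hhat*, which runs on the other strand. Each of these 7 copies holds some 20-base windows that occur once in the genome.

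Both U4 copies that passed the same threshold lie side by side on the plus strand of chromosome 5, at chr5:115939468-115939608 and chr5:115940263-115940403. They are identical at 139 of 141 positions and differ by G88A and C99A (copy 1 first). The letters are the NCBIM37 genome sequence of each annotated copy, 5′ to 3′ on the copy's own strand, positions are counted from 1 at the 5′ end, and capitals mark bases inside any 20-base window that occurs once in the genome. They are shown because only bases 69 to 118, around these substitutions, lie in such windows.
U4 copy 1: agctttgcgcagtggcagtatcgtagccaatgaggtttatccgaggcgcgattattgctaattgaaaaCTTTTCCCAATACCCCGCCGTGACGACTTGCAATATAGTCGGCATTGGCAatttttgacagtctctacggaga
U4 copy 2: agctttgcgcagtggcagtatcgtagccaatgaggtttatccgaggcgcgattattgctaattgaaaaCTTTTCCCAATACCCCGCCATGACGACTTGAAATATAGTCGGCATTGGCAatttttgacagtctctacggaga

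Of the 3 U2 copies that passed, copy 1 is at chr1:72272814-72273004, copy 2 at chr12:60141322-60141512 and copy 3 at chr11:101466164-101466354, all on the plus strand. They are identical at 180 of 191 positions. Copies 1 and 3 are shown because they took different courses below and differ by T78C, G95A, C109G, T154C and C170T (copy 1 first).
U2 copy 1: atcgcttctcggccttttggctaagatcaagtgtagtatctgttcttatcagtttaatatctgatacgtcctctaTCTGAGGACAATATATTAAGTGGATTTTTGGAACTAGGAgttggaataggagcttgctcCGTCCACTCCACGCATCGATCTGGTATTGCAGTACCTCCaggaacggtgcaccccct
U2 copy 3: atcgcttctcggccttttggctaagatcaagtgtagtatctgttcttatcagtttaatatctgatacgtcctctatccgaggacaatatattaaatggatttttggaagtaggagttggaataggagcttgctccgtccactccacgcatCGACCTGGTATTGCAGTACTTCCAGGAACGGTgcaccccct

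The branch site pairing letters GTAGTA of U2 stand at bases 33 to 38 of the 3 copies, outside their unique windows, and occur in 29 of 51 U2 copies (56.9%) and 46 of all members. For U2 copy 3 the unique windows reach from base 151 to 182, against 76 to 173 for copy 1. The Sm site of both U4 copies (AATTTTTG, bases 118 to 125) touches a unique window with 1 base. It occurs in 5 of 43 U4 copies (11.6%) and 13 of all members.

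**Figure D1:**
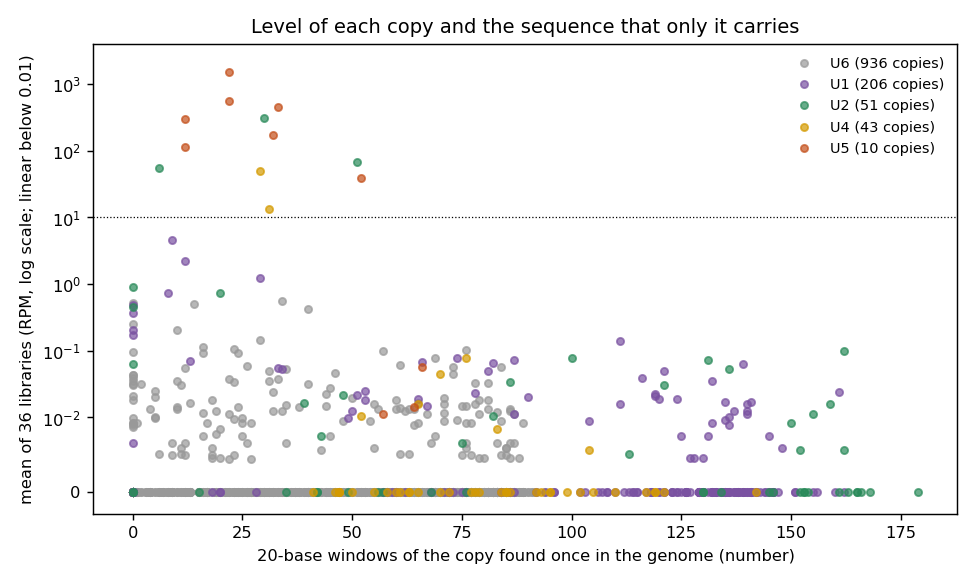
Mean level of each of the 1246 copies over the 36 time course libraries (y axis, RPM on a log scale that is linear below 0.01) against the number of its 20-base windows that occur once in the genome (x axis), 1 point per copy, coloured by type. The 12 points above the dotted line at 10 RPM are 7 U5, 3 U2 and 2 U4 copies, and all copies of U1 and U6 lie below it, also those with many unique windows.

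How reads that match several places were treated is not stated. In the table few such reads appear. No 20-base window unique in the genome exists in 142 copies (121 U6, 16 U1 and 5 U2), and in the 36 libraries the 43 U6 copies of identical sequence held 34 reads together, the 7 identical U1 copies 77 reads and the 4 identical U2 copies 55 reads. Of the 1246 members, 249 had a read in the time course and 12 reached 10 RPM in at least 3 libraries (7 U5, 3 U2 and 2 U4, none of U1 or U6). These 12 held 100% of the U5 sum, 99.4% of U2 and 99.7% of U4. The low sums of U1 and U6 therefore cannot be read as few U1 or U6 fragments in the cells. Just outside the threshold, the highest mean of a copy was 4.67 RPM for U1 (chr12:55797769-55797932), 0.909 for U2, 0.564 for U6 (chrX:151481153-151481262), 0.0783 for U4 and 0.0563 for U5. Overlap with another feature was found for 476 of the members. A read there may count for both features, which depends on how strand was treated and was not tested.

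U5 held most of the reads counted at snRNA copies in every library of the time course. The mean of the sums over 36 libraries was 3183 RPM for U5, 441 for U2, 62.7 for U4, 11.4 for U1 and 5.60 for U6, and per kilobase of the most abundant copy's length 27440, 2309, 445, 69.5 and 50.9 RPM. U5 took 80.5 to 90.8% of the reads of the 5 types (median 85.6%). In these sums the ranges of U5 (1141 to 4383 RPM), U2 (244 to 600) and U4 (16.1 to 118) did not overlap, while those of U1 (2.45 to 18.8 RPM, 2 to 94 reads) and U6 (1.61 to 9.48 RPM, 1 to 32 reads) did. The most abundant copy of U5, U2 and U4 was the same in all 36 libraries. U5 copy 1 held 39.2 to 59.4% of the U5 sum, U2 copy 1 64.9 to 82.9% of U2 and U4 copy 1 62.4 to 90.5% of U4. Among the other U5 copies, the share of copy 2 ran from 9.86 to 24.1% and that of copy 5 from 3.42 to 17.4%. The copies also differed in the number of 20-base windows found once in the genome. U2 copy 1 had 30 and copy 3 had 6, and U5 copy 4 had 12 and copy 7 had 52. Shares and ranks of copies and types are therefore those of counted reads and not of the RNAs.

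The time course asks how the snRNA fragments differ after *Dnmt1* deletion and when. U5 fragments were 1.68-fold higher in Dnmt1 KO than in control on day 1, lower on days 6 and 9 (0.687-fold and 0.643-fold), not called on days 3 and 11, and higher again on day 25 (1.35-fold). U2 rose with U5 on days 1 and 25 and fell on day 6. U4, U1 and U6 passed the test on no day. Day 1 controls held less U5 than any other group. Later controls differed from them by 2.24-fold to 3.07-fold, more than the genotypes differed on any day. Among the controls of days 3 to 25, however, the means ran only from 3421 to 4056 RPM. The control and Dnmt1 KO means of day 9 were 4056 and 2414 RPM.

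**Figure D2:**
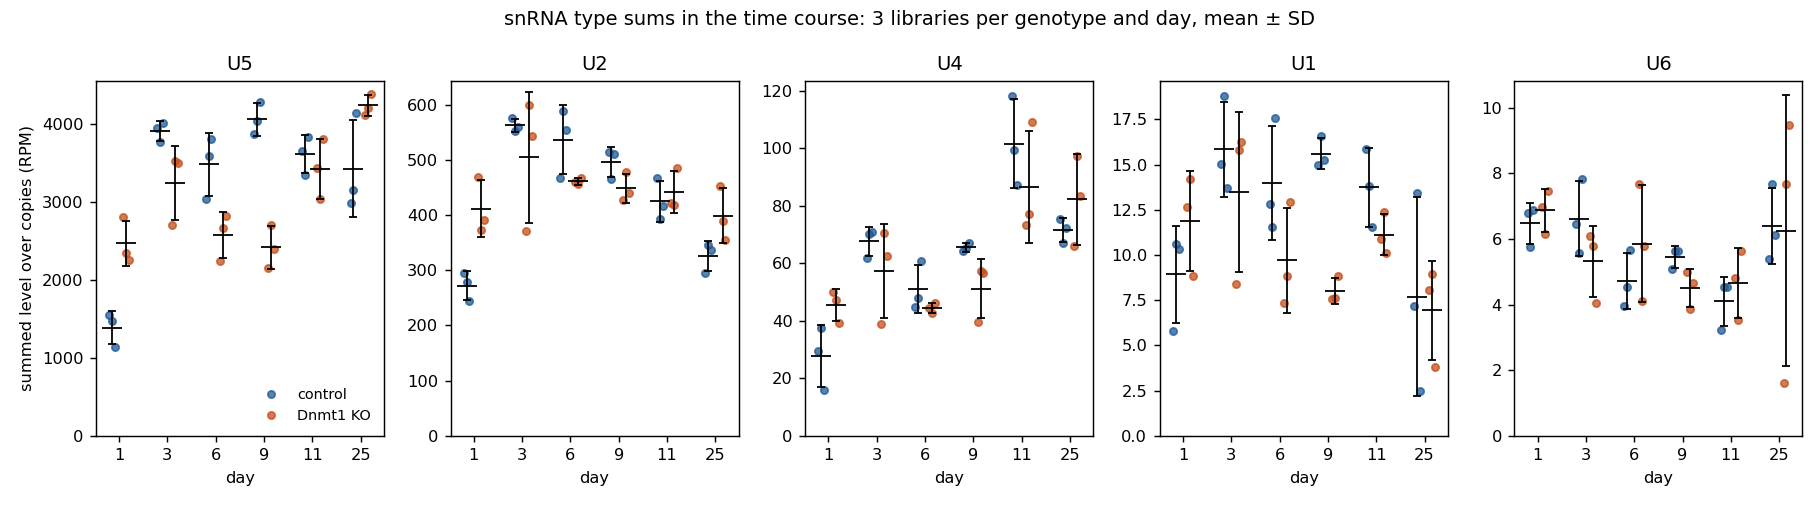
Summed level of each snRNA type in RPM (y axis, linear and starting at 0, with a scale of its own per panel) by day, 1 point per library, control and Dnmt1 KO side by side; black marks are the mean and SD of 3 libraries. For U5, Dnmt1 KO libraries lie above the controls on day 1 and below them on days 3, 6 and 9.

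On day 1 the U5 sum was 1545, 1475 and 1141 RPM in the controls and 2798, 2346 and 2258 RPM in Dnmt1 KO. All Dnmt1 KO libraries lay above all controls. The log2 difference was 0.75 ± 0.12 (SE; limma adjusted p = 9.81e-05), where 2.56% of the 2575 tested features were called higher. For U2, which pairs with the branch site, the levels were 295, 278 and 244 against 470, 373 and 391 RPM, again without overlap. Its log2 difference was 0.50 ± 0.12 (limma adjusted p = 0.00899), so 2 of the 5 types were called. That U2 call was lost without Dnmt1 KO replicate 1 (limma adjusted p = 0.117) or control replicate 3 (0.104) of day 1, without a filter on level (0.0723) and without the most abundant copy (0.0568). U4, the partner that keeps U6 inactive, stood at 29.6, 37.6 and 16.1 RPM in controls and 49.9, 47.2 and 39.3 RPM in Dnmt1 KO. Its groups did not overlap either, but the log2 difference of 0.68 ± 0.21 missed the threshold (limma adjusted p = 0.0566). With 3 libraries against 3, an exact permutation test of a single sum cannot go below p = 0.1.

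On day 3 the U5 sum was 3947, 3762 and 4009 RPM in controls and 2694, 3523 and 3495 RPM in Dnmt1 KO. The Dnmt1 KO libraries lay below the controls, yet the log2 difference of -0.26 ± 0.12 was not called (limma adjusted p = 0.202). None of the 5 types was called by limma or by voom on the reads, 1 (U5) had an unadjusted p under 0.05, and 6.21% of all features were called. The U2 and U4 sums overlapped between genotypes, since Dnmt1 KO replicate 1 was low in both (371 RPM of U2 and 38.8 RPM of U4) and the other replicates were near the controls.

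On day 6 the controls held 3031, 3590 and 3808 RPM of U5 and the Dnmt1 KO libraries 2238, 2661 and 2810 RPM. U5 fell by 0.54 on the log2 scale (SE 0.12, limma adjusted p = 0.000484). Among all tested features 9.24% were called lower on that day, and the median log2 difference of all features was 0.14 above 0. U2 held 467, 589 and 555 RPM in controls and 459, 456 and 468 in Dnmt1 KO. These ranges overlapped by the lowest control, and the log2 difference was -0.32 ± 0.12 (limma adjusted p = 0.0462). The U2 call was lost with library totals in place of TMM scaling (limma adjusted p = 0.229) and in 16 of 36 fits that left out a library.

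On day 9 U5 held 3862, 4029 and 4276 RPM in controls and 2150, 2696 and 2397 RPM in Dnmt1 KO. The groups were far apart, with means of 4056 ± 208 and 2414 ± 273 RPM (SD, n = 3 each). The log2 difference was -0.64 ± 0.12 (limma adjusted p = 5.06e-05), and 5.94% of all features were called lower. The U2 sums of 515, 465 and 511 RPM in controls and 427, 478 and 441 RPM in Dnmt1 KO overlapped, with a log2 difference of -0.03 (95% interval -0.27 to 0.21). U4 held 64.1, 65.3 and 67.0 RPM in controls and 39.4, 57.4 and 56.7 RPM in Dnmt1 KO, without overlap and without a call (log2 difference -0.25 ± 0.21, limma adjusted p = 0.48). U1 was at 15.0, 16.6 and 15.3 RPM in controls and 7.59, 7.60 and 8.82 RPM in Dnmt1 KO, from 47 to 94 reads per library. The U1 groups did not overlap, but the log2 difference of -0.78 ± 0.33 was not called (limma adjusted p = 0.0947). That value passed in the count-based voom fit on the reads (adjusted p = 0.000413), with the replicate block (0.0295), with day 9 fitted alone (0.000302) and with a pseudocount of 5 (0.0456).

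On day 11 the U5 sums overlapped, at 3654, 3347 and 3829 RPM in controls and 3437, 3029 and 3799 RPM in Dnmt1 KO. The log2 difference was 0.00 with a 95% interval of -0.23 to 0.24. None of the 5 types was called by limma or voom and none had an unadjusted p under 0.05, while 8.62% of all features were called. On day 25 U5 held 2985, 3149 and 4130 RPM in controls and 4112, 4202 and 4383 RPM in Dnmt1 KO. Control replicate 3 reached above the lowest Dnmt1 KO library. U5 rose by 0.43 ± 0.12 (log2; limma adjusted p = 0.00343), a call that was lost without control replicate 1 of day 25 (limma adjusted p = 0.0597) and with levels scaled to the reads outside miRNAs (0.0626). U2 was at 296, 345 and 337 RPM in controls and 453, 389 and 354 RPM in Dnmt1 KO, without overlap, and rose by 0.40 ± 0.12 (limma adjusted p = 0.00776). The U2 call was lost with library totals (limma adjusted p = 0.0728), with levels scaled to the reads outside miRNAs (0.146), without a filter on level (0.208) and without replicate 1 of control (0.0850) or of Dnmt1 KO. Of all features 17.9% were called higher on day 25, so that 2 of 5 types is read against a high background.

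Averaged over the 6 days no type was called by limma or voom, and none had an unadjusted p under 0.05, while 26.7% of all features were called. The mean log2 difference was -0.04 ± 0.05 for U5, 0.09 ± 0.05 for U2 and 0.00 ± 0.08 for U4. A permutation test of the mean RPM within days (100000 draws) gave 3057 RPM in Dnmt1 KO and 3309 RPM in controls for U5, a difference of -252 RPM (p = 0.223, adjusted over 5 types 0.557). For U1 that difference was -2.45 RPM (permutation p = 0.0317, adjusted 0.159).

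Several other measures moved with the genotype. Fibroblast or feeder markers summed to 34517 to 36690 RPM in day 1 controls and 36939 to 42100 RPM in Dnmt1 KO, and to 43001 to 52346 and 70655 to 82923 RPM on day 9. They were higher in Dnmt1 KO on every day, also on day 25 (23158 to 24565 against 26550 to 29390 RPM). Such a sum need not rest on all members of the list. In the 2 libraries titled none it was 38454 to 58280 RPM with *Mir145*, *Mir199a-1*, *Mir199a-2* and *Mir214* at 0. In the sorted PGCs it was 13763 to 20164 RPM with 3 members at 10 RPM. Values per member are not given here, so the sums do not measure a share of feeder cells. ESC markers summed to less in controls than in Dnmt1 KO on day 1 (116832 to 123978 against 128576 to 133139 RPM) and on days 3 and 6, and to more on day 9 (119986 to 126671 against 111278 to 112585 RPM), day 11 and day 25 (176156 to 209785 against 136659 to 141633 RPM). The 5 blood markers, of which 2 reached 10 RPM, summed to 915 to 1025 RPM in controls and 2066 to 2353 RPM in Dnmt1 KO on day 9, and to 990 to 1015 and 734 to 828 RPM on day 25. Fragments of 7SK, a nuclear RNA of the transcription machinery, stood at 52.2 and 84.8 RPM (control and Dnmt1 KO means) on day 1, 90.4 and 69.4 RPM on day 9 and 164 and 154 RPM on day 25. Fragments of snoRNAs, the nucleolar guide RNAs, stood at 156110 and 163197 RPM on day 1, 171831 and 146155 RPM on day 9, and 172934 and 201584 RPM on day 25. Those of Y RNAs, also small non-coding RNAs, stood at 10831 and 12262, 4736 and 3675, and 7578 and 8963 RPM on the same days. Those of mitochondrial tRNAs stood at 5274 and 5032, 4359 and 4529, and 2668 and 3257 RPM. On days 1 and 9 these tRNA means went opposite to U5, with overlapping ranges. The part of cell composition and of RNA breakdown in the U5 differences was not tested. In these bulk libraries, fewer cells of a type and less RNA per cell cannot be told apart.

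The single copies show whether a type moved as a whole. On day 1, 8 of the 12 tested copies were called higher (5 U5, 2 U2 and 1 U4) and none lower, where 2.87% of 2582 features were called higher. The median log2 difference of the 12 was 0.75. Having passed a filter on level, these copies are a description and not a count over the members.

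**Figure D3:**
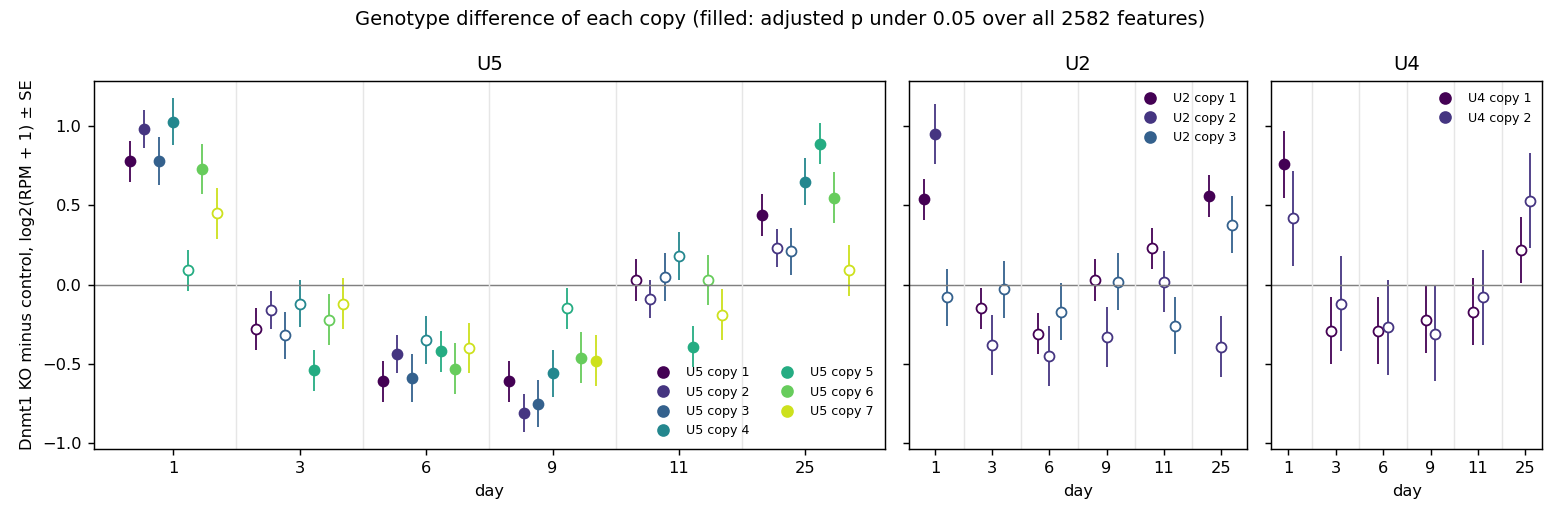
Dnmt1 KO minus control in log2(RPM + 1) with its SE (y axis) of each of the 12 copies by day (x axis), in 1 panel per type, from the fit across 2582 features; filled points passed the adjusted p threshold of 0.05. U5 copies lie above 0 on day 1 and below 0 on days 6 and 9, and copy 5 alone is filled on days 3 and 11.

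U5 copy 2 had the smallest adjusted p of day 1, with 263, 206 and 188 RPM in controls and 535, 421 and 420 RPM in Dnmt1 KO. It was higher in every Dnmt1 KO library, by 0.98 ± 0.12 on the log2 scale (limma adjusted p = 1.28e-06). U5 copy 4 differed by 1.03 ± 0.15 (limma adjusted p = 2.45e-05), with 107, 97.0 and 60.9 RPM in controls and 222, 171 and 173 RPM in Dnmt1 KO. Copies 1, 3 and 6 were called as well, with log2 differences of 0.78, 0.78 and 0.73. Copy 7 was not called (0.45 ± 0.16, limma adjusted p = 0.143), nor was copy 5, at 169, 179 and 199 RPM in controls against 216, 199 and 202 RPM in Dnmt1 KO. Copy 5 differed by 0.09 ± 0.13 (limma adjusted p = 0.839), and its groups touched at 199 RPM.

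Among the U2 copies, copy 2 had the larger difference on day 1, from 39.2, 42.9 and 23 RPM in controls to 79.2, 67.8 and 65.8 RPM in Dnmt1 KO. Its log2 difference was 0.95 ± 0.19 (limma adjusted p = 0.00114), and it was lost without control replicate 3 of day 1. U2 copy 1 rose from 199, 181 and 176 to 332, 257 and 274 RPM (log2 0.54 ± 0.13, limma adjusted p = 0.00981). U2 copy 3 was not called, with 52.3, 53.1 and 43.7 RPM against 56.6, 46.1 and 47.5 RPM (log2 -0.08, limma adjusted p = 0.913). U4 copy 1 rose from 21.8, 23.5 and 11.5 RPM to 36.3, 36.7 and 27.8 RPM (log2 0.76 ± 0.21, limma adjusted p = 0.0288). U4 copy 2, its neighbour on chromosome 5, held 7.75, 14.2 and 4.6 against 13.6, 10.5 and 11.5 RPM and was not called (0.42, limma adjusted p = 0.598).

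On days 6 and 9 the called copies were all of U5. On day 6, 5 of 12 were called lower (copies 1, 2, 3, 5 and 6) where 9.33% of all features were, and on day 9, 6 of 12 (copies 1, 2, 3, 4, 6 and 7) where 6.12% were. U5 copy 1 led on day 6, with 1474, 1802 and 1841 RPM in controls and 1003, 1284 and 1323 RPM in Dnmt1 KO (log2 -0.61 ± 0.13, limma adjusted p = 0.000529). On day 9 it was copy 2 again, with 932, 836 and 899 RPM in controls and 446, 516 and 445 RPM in Dnmt1 KO. No library of either genotype overlapped, and copy 2 fell by 0.81 on the log2 scale (SE 0.12, limma adjusted p = 9.36e-07). On day 6 the number of called copies was 2 with library totals and 9 with median-ratio scaling.

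U5 copy 5, in an exon of *B930036N10Rik*, was called on days when no other copy was. The difference between the copies was not tested. On day 3 it held 288, 268 and 292 RPM in controls and 192, 189 and 193 RPM in Dnmt1 KO and was the 1 copy called (log2 -0.54 ± 0.13, limma adjusted p = 0.00443; 1.74% of features were called lower). On day 11 it was again the 1 copy called, with 188, 191 and 197 RPM against 126, 135 and 155 RPM (log2 -0.39 ± 0.13, limma adjusted p = 0.0447; 2.36% called lower). The day 11 call was lost in 17 of the fits that left out a library. On day 25 the direction turned: copy 5 held 102, 111 and 168 RPM in controls and 199, 234 and 208 RPM in Dnmt1 KO, all of these above all controls. It rose by 0.89 ± 0.13 (log2; limma adjusted p = 4.11e-07).

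**Figure D4:**
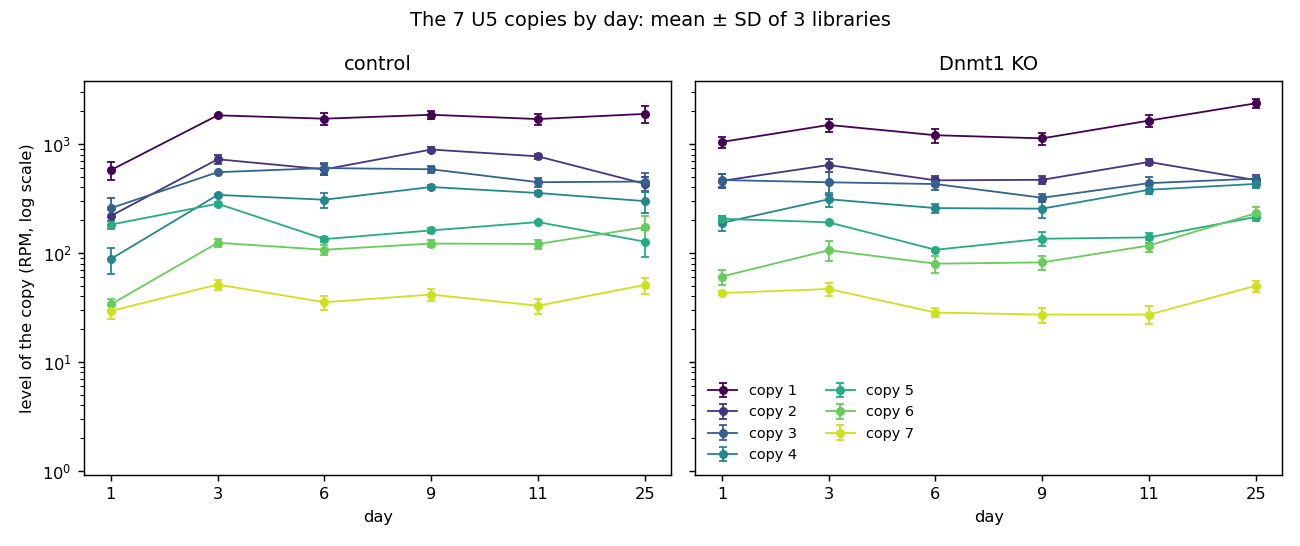
Level of each of the 7 U5 copies in RPM (y axis, log scale) by day (x axis), as the mean and SD of 3 libraries, with control and Dnmt1 KO in separate panels and lines joining the means. Copies 1 to 4 and 6 start low in the day 1 controls, while copy 5 starts at 169 to 199 RPM there and is at 102 to 168 RPM in the controls of day 25.

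With copy 5, U5 copies 1, 4 and 6 were called higher on day 25 (log2 0.44, 0.65 and 0.55) and so was U2 copy 1, at 204, 246 and 242 RPM in controls and 367, 323 and 263 RPM in Dnmt1 KO (log2 0.56 ± 0.13, limma adjusted p = 0.000669). This made 5 of 12 where 18.0% of all features were called higher. U2 copy 2 did the opposite by its values, 50.2, 78.7 and 66.2 RPM in controls and 43.4, 38.4 and 55.0 RPM in Dnmt1 KO, and was not called. The U2 sum without copy 1 had a log2 difference of -0.13 on day 25 (limma adjusted p = 0.456), so the U2 call of that day rests on copy 1. Averaged over days, U2 copy 1 was the 1 copy called (log2 0.15 ± 0.05, limma adjusted p = 0.0318; 16.6% of features called higher), and that call was lost in 19 of the fits that left out a library.

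Control days show how far the levels differed between groups without a *Dnmt1* difference. Each control day is 1 group of 3 libraries, so day and library cannot be told apart. Totals of both genotypes also differed by day, with 870481 to 3731630 reads on day 1 and 4135228 to 6239009 on day 9. In controls the U5 sum was higher than on day 1 on every later day, by 2.73-fold on day 3, 2.70-fold on day 6, 3.07-fold on day 9, 2.60-fold on day 11 and 2.24-fold on day 25, and all 5 differences were called. The day 1 controls (1141 to 1545 RPM) lay below every other library of the time course, of which the lowest held 2150 RPM. U4 was higher on the same 5 days, with log2 differences of 1.28, 1.03, 1.35, 1.89 and 1.28. Without its most abundant copy the U4 difference was 0.74 on day 6 (limma adjusted p = 0.0607) and 0.01 on day 25 (0.973), and in the libraries titled R1, an alternative set, it was 0.16 on day 6 (0.845) and not called on day 9 either (0.101). U2 was higher on days 3, 6, 9 and 11 (0.99, 1.08, 0.93 and 0.63) but not on day 25 (0.13, limma adjusted p = 0.384). The shares of all features called higher on these 5 days were 8.39, 12.9, 10.8, 16.5 and 22.6%. For U1 the log2 differences of 0.74, 0.71, 0.84, 0.59 and -0.49 were not called (limma adjusted p = 0.136, 0.101, 0.0673, 0.164 and 0.212), though voom on the reads called days 3 to 11. Of U6 none was called by either.

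All U5 copies but copy 5 kept the direction of the sum in controls. On day 3 all 12 tested copies were called higher than on day 1 (8.79% of all features were), and on day 9 it was 11 of 12 (19.1% of all features were called in either direction). U5 copy 5 was higher on day 3 (log2 0.58) but lower on day 6 (-0.34 ± 0.13, limma adjusted p = 0.0395) and day 25 (-0.68 ± 0.13, limma adjusted p = 1.81e-05), on which 14.9 and 28.1% of all features were called lower. U2 copy 3 also fell, from 52.3, 53.1 and 43.7 RPM on day 1 to 35.9, 19.2 and 28.2 RPM on day 25, by 0.98 on the log2 scale (limma adjusted p = 9.4e-06). On days 6, 11 and 25, 8, 9 and 8 copies were called higher, where 13.1, 16.7 and 22.8% of all features were.

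Whether the genotype difference itself changed with the day was tested in the same fit. Relative to day 1, the U5 difference was lower by 1.01 on day 3, 1.29 on day 6, 1.38 on day 9 and 0.75 on day 11 (log2), all called, and the day 25 value of -0.32 was not (limma adjusted p = 0.188; 19.8% of features called). Features called lower made up 3.22, 7.88, 5.51 and 2.72% of all on days 3 to 11. U2 gave -0.67, -0.82 and -0.53 and U4 -0.94, -0.97 and -0.93 on days 3, 6 and 9, all called. The U4 calls of these days were lost without a filter on level, in the libraries titled R1, without the most abundant copy and in 17, 2 and 6 of 36 fits that left out a library (-1.19 to -0.58 on day 3). The U4 call of day 3 was also lost with median-ratio scaling, a pseudocount of 0.5 and voom. The U2 calls of days 3 and 9 were lost without a filter on level and in 1 and 4 fits that left out a library, and that of day 3 in the libraries titled R1 as well. On day 11 neither was called (-0.36, limma adjusted p = 0.233 for U2 and -0.84, 0.0718 for U4). An F test over the 5 differences gave 22.10 for U5 (limma adjusted p = 5.81e-09), 7.37 for U2 (0.000495), 3.63 for U4 (0.0282), 1.61 for U1 (0.296) and 0.31 for U6 (0.931), with 34.5% of all features called. Of the 12 copies 10 were called in that test, with 34.8% of all features. Each of these contrasts holds the day 1 controls.

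The pull-down gives the levels of these fragments in RNA recovered with AGO2. RPM is a share of each library, so what part of the fragments is bound cannot be read from it. U5, the type with the most counted reads, was at 7.35, 7.04, 5.43 and 11.9 RPM in AGO2 control (81 to 303 reads) and 9.55, 9.65, 6.23 and 7.64 RPM in AGO2 Dnmt1 KO (11 to 88 reads). The means of 7.94 ± 2.78 and 8.27 ± 1.65 RPM (SD, n = 4 each) did not differ beyond the spread (exact permutation p = 0.886; log2 difference in the limma fit -0.15, 95% interval -0.71 to 0.41). U2 stood at 2.60 to 5.43 RPM over the 8 libraries, U1 at 0.296 to 1.93, U4 at 0 to 1.93 and U6 at 0 to 0.644. None of the 5 types was called by limma or voom, none had an unadjusted p under 0.05, and no single copy reached 10 RPM, while 24.5% of the 461 features tested were called higher and 11.5% lower in AGO2 Dnmt1 KO. Per 1000000 reads outside miRNAs, however, U2 was at 357 to 474 in AGO2 control and 141 to 231 in AGO2 Dnmt1 KO, without overlap, and was called (log2 difference -1.08, limma adjusted p = 0.0217). The base of that scale differed between genotypes. miRNAs took 988553 to 990471 RPM in AGO2 control and 978538 to 981475 RPM in AGO2 Dnmt1 KO, which left more reads outside miRNAs in the latter. In RPM the U2 means were 4.08 in AGO2 control and 3.59 in AGO2 Dnmt1 KO. The exact permutation p of the other types were 0.571 (U1), 0.457 (U2), 0.686 (U4) and 0.457 (U6), with 0.0286 the smallest that 4 against 4 allows. These tests, and those against day 9 below, take the 4 libraries of a group as separate. Replicates 1 and 2, and replicates 3 and 4, however deviated together across genotypes.

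**Figure D5:**
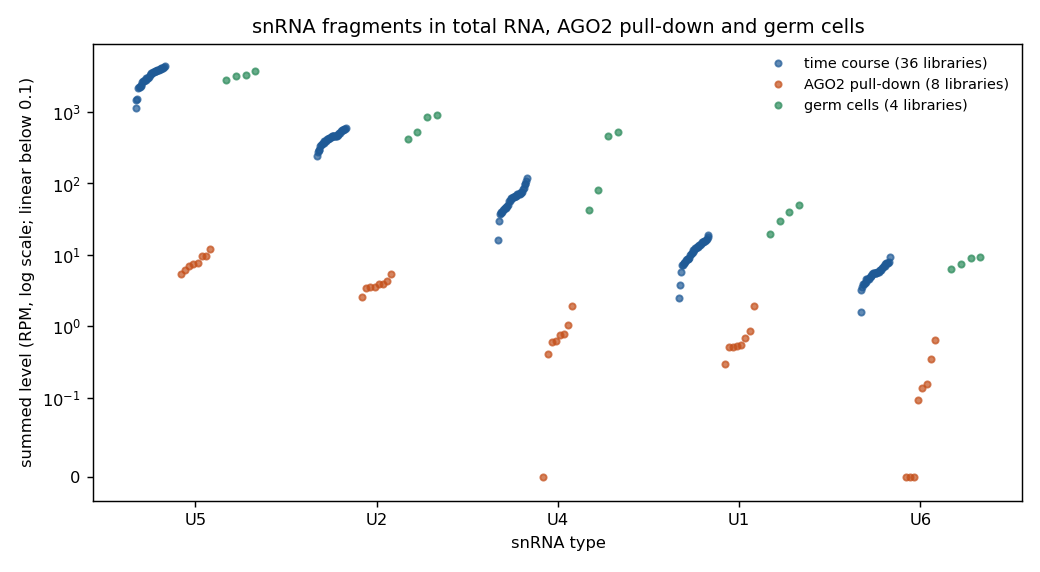
Summed level of each snRNA type in RPM (y axis, log scale) in the 36 time course, 8 AGO2 and 4 PGC libraries, 1 point per library in order of level within a kind; the axis is linear below 0.1 RPM, so that libraries with no read are drawn at 0. For U5 the AGO2 libraries lie at 5.43 to 11.9 RPM, the time course at 1141 to 4383 RPM and the PGCs at 2811 to 3781 RPM.

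Set beside the day 9 libraries, every type was lower in AGO2, in all 8 pull-down libraries against all 6 others. U5 differed 399-fold (5.43 to 11.9 against 2150 to 4276 RPM), U2 123-fold, U4 76.0-fold, U6 28.8-fold and U1 16.1-fold, each with an exact permutation p of 0.000816, the smallest that the 1225 arrangements within genotypes can give. Most of the AGO2 reads were miRNAs (97.9 to 99.0%, against 52.9 to 60.7% in the time course). Per 1000000 reads outside miRNAs the ratio of day 9 to AGO2 was 13 for U5 (5236 to 10040 against 290 to 1041), 3.93 for U2, 2.58 for U4, 1.06 for U6 and 0.552 for U1, so the direction for U1 turned with the scale. On that scale neither U1 (exact permutation adjusted p = 0.0531) nor U6 (0.242) was called. The AGO2 libraries held only 1 to 14 reads of U1, 0 to 4 of U6 and 0 to 19 of U4 each. U5 took 50.5 to 73.3% of the snRNA reads in AGO2.

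In the PGCs, with 1 library per stage and sex and therefore no test, the U5 sums of the 4 libraries lay within the ESC range, and those of U2 and U4 were higher in the E14.5 than in the E13.5 libraries. U5 held 3781, 2811, 3362 and 3178 RPM in E13.5 cells (female, then male) and E14.5 cells (female, then male), respectively. U2 held 419, 530, 858 and 913 RPM in the same order, and U4 81.0, 43.0, 532 and 461 RPM. Both of these E14.5 libraries lay above both E13.5 libraries in U2 and U4, and above all 36 ESC libraries, whose highest sums were 600 and 118 RPM. An E14.5 male library titled R1 did not share this, and how it relates to its namesake is not stated. At 1328606 reads in all it held 489 RPM of U2 and 24.1 RPM of U4, inside the ESC ranges. It lay below the E13.5 male library in U2 and below both E13.5 libraries in U4, with 2926 RPM of U5 and 36.1 RPM of 7SK. U4 was, however, lower in time course libraries titled R1 (median 18.2 RPM, 7.18 to 42.4) than in the others (median 63.3 RPM). The U4 level of an R1 library is therefore not comparable with libraries without that suffix. The R1 libraries of E13.5 female and male cells held 24 and 4 reads of U2 and none of U4. U4 copy 1 was at 62.2, 32.9, 265 and 255 RPM and copy 2 at 18.1, 10.1, 267 and 205 RPM, so copy 2, the lesser copy in all ESC libraries, held as much as copy 1 in the E14.5 female. U2 copy 3 was at 57.6, 74.9, 270 and 311 RPM. U1 held 30.2, 19.8, 39.6 and 50.7 RPM (59 to 136 reads) and U6 7.46, 9.40, 9.02 and 6.34 RPM. 7SK fragments differed in the same way (22.4, 48.4, 345 and 326 RPM), as did snoRNA fragments (208263, 190898, 325245 and 291679 RPM). Y RNA fragments went the other way (3719, 2520, 1604 and 1664 RPM), and fragments of mitochondrial tRNAs held 1592, 1131, 1618 and 1720 RPM. Stage and library cannot be told apart here.

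Other RNAs of the splicing machinery were taken from fixed lists. Of the minor spliceosome and other small nuclear or nucleolar RNAs, 8 features were tested (7SK, U11, U12, both U3, U4atac, U6atac and U7). On day 1, 3 were called higher in Dnmt1 KO: U11 and U4atac, of the minor spliceosome, by 0.52 and 0.76, and U3, which acts in ribosomal RNA processing, by 0.48 (log2), where 2.87% of all 2582 features were called higher. The list median was 0.50, against 0.02 over all features. On day 6, 4 were called lower (U7 by -0.79, U11 by -0.56, U4atac by -0.69 and U3 by -0.33; 9.33% of all features were lower). On day 9, 3 were called lower (6.12% of all features) and U12 higher, by 0.73 (12.3% of all features). None was called on day 3 (6.24% of all features were called), 1 was lower on day 11 (U3, -0.39; 2.36%) and 2 were higher on day 25 (U11 0.49, U4atac 0.81; 18.0%). In controls, 5, 6, 6, 6 and 3 of the 8 were called higher than on day 1 on days 3, 6, 9, 11 and 25 (list medians 0.81, 0.66, 0.85, 1.07 and 0.41; for all features 8.79, 13.1, 16.7 and 22.8% were higher on days 3, 6, 11 and 25, and 19.1% called in either direction on day 9). On the same days 1, 1, 0, 2 and 2 were called lower, against 6.66, 14.9, 18.3 and 28.1% of all features on days 3, 6, 11 and 25. U12, which pairs with the branch site of minor introns, was among those lower on each of these 4 days (-0.75, -1.98, -1.23 and -2.57) and was not called on day 9; it was singled out after its values were seen.

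Reads over the protein genes were few. Of 15 Sm and LSm genes only *Snrpb*, an Sm protein, passed the filter on level. It was called on day 6 (log2 -0.59 ± 0.13, limma adjusted p = 0.000665), where 9.33% of all features were called lower. Over the mean of days it was called too (-0.18 ± 0.05, limma adjusted p = 0.00824), where 26.7% of features were called in the fit of type sums. Of 25 genes of snRNP-specific proteins 9 were tested, and 1, 0, 2, 1, 0 and 1 were called on days 1, 3, 6, 9, 11 and 25. Against 23.0% of all features called on day 6, 18.0% called higher on day 25 and 8.64% called on day 11, the counts of those 3 days are near or below the background. Of all features 2.87% were called higher on day 1 and 6.12% lower on day 9. The gene called on days 1, 9 and 25 was *Sf3b3*, of the U2 snRNP (0.36, -0.38 and 0.66). *Sf3b3* was also called lower on day 6 (-0.40 ± 0.10, limma adjusted p = 0.00307), but 67.1% of its reads lay in the snoRNA gene SNORD111 inside it. *Prpf8*, of the U5 snRNP, was called higher on day 6 (0.84 ± 0.20, limma adjusted p = 0.00131).

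Across the 36 time course libraries, the features most like each sum were chosen by Pearson's r of log2(RPM + 1) from 2481 candidates. The libraries share days, genotypes and scaling, so these values are a description. For U5 they were SNORD18, *Rg9mtd1* and the snoRNA gene SNORA70 inside it (r = 0.90 each), and for U4 *Rplp2* with Snora52 inside it (0.84 each) and SNORA70 (0.83). For U2 they were Snord1b (0.80), *Rpl4* (0.78), whose span holds SNORD18, and SNORD12 (0.77). The U1 sum was most like SNORA2 and AC120136.3, an snRNA gene (0.79 each), and *Igsf21* (0.75), and U6 most like *Birc6* (0.63), *Gatad2a* and *Gap43* (0.62 each), at levels of a few reads. Between the types, r was 0.83 for U4 and U5, 0.62 for U2 and U5, and -0.16 for U5 and U6.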

How the data were processed

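Small RNA-seq of 83 libraries was used as deposited, in 1 table of 32101 features on the mouse build NCBIM37. Following the study's methods for small RNA, with versions from the submitters' processing notes, the authors trimmed reads with Trim Galore 0.3.5, kept those of 20 to 24 nt, mapped them with Bowtie2 2.2.9 before SeqMonk counted reads over each gene span. How strand and reads with several matches were treated is not given in the sources used here. The deposited values are RPKM per feature span. RPKM times the span in kilobases gave RPM, and all values came out as whole reads within 5%, so that reads could be read back. Intervals of reads cover counting error only.

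Members were chosen by name, and the lists, the rule for named copies and the alternatives were all chosen with earlier results of these data known. Named were the 5 type sums, the copies with the highest means (up to 4 per type), the called copy with the smallest adjusted p per type, comparison and direction, and the 3 features most like each sum; other values of the 12 copies were chosen after they were seen. A feature was tested if 3 or more libraries held 10 RPM of it. Type sums and all such other features (2575; 2582 with copies kept apart) were fitted on log2(RPM + 1) with limma 3.58.1 (limma-trend, R 4.3.3) after TMM scaling of own making (30% of ratios and 5% of abundances trimmed), with 1 mean per day and genotype. Fold changes are on that scale and shrink for low levels. Calls needed a Benjamini-Hochberg adjusted p under 0.05 over all features of a comparison. The table held RPKM and not raw counts, so no count model was the main test; voom on the reads was an alternative. AGO2 libraries had a fit of their own (461 features). Scripts used Python 3.11.15 and were tested on simulated data. The sequences came from NCBIM37, the annotation from GENCODE vM1; those of some copies are not reported here.

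Equal replicate numbers in the titles did not pair the time course libraries (18 pairs, r -0.07 to 0.05). In AGO2, equal numbers deviated together (4 of 4 pairs, r 0.19 to 0.39). So did replicates 1 with 2 and 3 with 4 across genotypes (r 0.22 to 0.39), while all other pairs had r of -0.46 to -0.06. The AGO2 libraries thus fell into blocks of replicates 1 and 2 and of replicates 3 and 4. With block means in place of libraries, none of the 5 types was called between genotypes, as in the fit of single libraries. Block means leave few values per group and could hardly gain a call, so this does not decide whether the blocks matter. The 30 time course libraries titled R1, in which nearly all read counts are even, served only as an alternative. Neither 3 PGC libraries titled R1 nor 2 libraries titled none entered a test, and their values are only set beside those of other libraries. Unlike the titles, genotype tags of several groups were not used.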

Additional observations from a re-analysis of the deposited data

Results flagged for a closer look

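The genotype difference of the snRNA fragments changed with the day, by tests of the change itself in the limma fit. Against day 1, the U5 difference was -1.01 on day 3, -1.29 on day 6, -1.38 on day 9 and -0.75 on day 11 (log2). For U2 the change was -0.67, -0.82 and -0.53 on days 3, 6 and 9, and for U4 it was -0.94, -0.97 and -0.93. The F over the 5 changes was 22.10 for the U5 sum, 7.37 for U2 and 3.63 for U4. Among single copies, F was 18.38, 26.71, 14.84, 16.47, 17.54, 10.70 and 4.38 for U5 copies 1 to 7, 7.65 and 8.50 for U2 copies 1 and 2, and 3.93 for U4 copy 1, so 10 of the 12 tested copies were called, where 34.8% of all features were. These values share the day 1 controls, in which U5 was lowest. No library stood apart from its group of 4 in the AGO2 libraries, and groups of 3 were not examined for this.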

How the results depend on the processing

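All values are log2 differences from the limma fits unless stated. The U5 differences of days 1, 6 and 9 kept their direction and call under every alternative and left-out library, and so did the 5 control-day differences of U5 where they could be computed (not with the replicate block or each day alone, and for days 3, 6 and 9 alone in the libraries titled R1). Elsewhere calls changed as follows, and the cause was not tested. With library totals, U4 on day 1 (0.77) and the changes from day 1 of U2 and U4 on day 11 (-0.54, -1.01) and U5 on day 25 (-0.52) passed, U2 on days 6 and 25 (-0.21, 0.29) did not, and 2 copies were called on day 6 and 0 over the mean. With median-ratio scaling U4 on day 3 against day 1 (-0.91) was lost, and 9 copies were called on day 6 and 0 on day 11. A pseudocount of 0.5 lost the same value (-0.95), and one of 5 made U1 pass on day 9 (-0.60) and in day 9 controls (0.63). Without a filter on level, U2 on days 1, 6 and 25 (0.63, -0.37, 0.36), U5 on day 25 (0.39), the changes from day 1 of U2 on days 3 and 9 (-0.84, -0.69), U4 on days 3, 6 and 9 (-1.10, -1.15, -1.08) and U5 on day 11 (-0.83), and the U4 F (3.29) were lost, and 0, 2, 3, 0, 2 and 0 copies were called on days 3, 6, 9, 11, 25 and over the mean. With voom on reads, U1 passed on days 6 and 9 (-0.63, -0.85), in controls of days 3 to 11 (0.84, 0.80, 0.95, 0.71), in the changes of days 6 and 9 (-1.11, -1.33) and in F (4.42), U4 on day 3 against day 1 (-0.75) was lost, and 8 copies were called on day 6. In the libraries titled R1 (none for day 25; day 11 controls titled WT), U2 on day 6 (-0.13), U4 in controls of days 6 and 9 (0.16, 1.1), the changes of U2 on day 3 (-0.76) and U4 on days 3, 6 and 9 (-1.71, -1.03, -1.53), and F of U2 and U4 (4.22, 2.41) were lost, with 1, 3, 0 and 7 copies called on days 6, 9, 11 and in day 9 controls.

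With each day fitted alone, which gives no change between days, U1 passed on day 9 (-0.81) and 9 and 2 copies were called on days 6 and 11. Without the most abundant copy of a type, U2 on day 25 turned to -0.13 and on day 1 (0.42) was lost; U1 passed on day 9 (-0.98), over the mean (-0.39), in controls of days 6 and 9 (0.91, 0.93) and in the changes of days 6 and 9 (-1.33, -1.48); U2 passed in the change of day 25 (-0.56); U4 was lost in controls of days 6 and 25 (0.74, 0.01), in the changes of days 3, 6 and 9 (-0.54, -0.72, -0.75) and in F (1.51). Without overlapping copies U1 passed in day 25 controls (-1.04). Sums over passing copies alone gave no value for U1, U6 and AGO2. Scaled to the reads outside miRNAs, U4 on day 1 (0.70), the changes of U4 on day 11 (-0.92) and U5 on day 25 (-0.51) and AGO2 U2 (-1.08) passed, and U2 on days 6 and 25 (-0.18, 0.21) and U5 on day 25 (0.25) did not. Against day 9 on that scale, AGO2 U1 turned to 0.72 and U6 was -1.11, and neither was called by the permutation test.

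With a replicate block by title number, which the check above does not bear out for the time course, U4 on day 1 (0.68), U1 on day 9 (-0.78), and the changes of U1 on day 9 (-1.09) and U4 on day 11 (-0.84) passed and U2 on day 6 (-0.32) did not; in AGO2 the replicate block changed no call.

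Leaving out 1 library at a time gave these ranges: U2 day 1 0.42 to 0.57 (lost without Dnmt1 KO replicate 1 or control replicate 3), U4 day 1 0.35 to 0.94, U2 day 6 -0.45 to -0.27, U1 day 9 -0.92 to -0.72, U2 day 25 0.30 to 0.43 (lost without replicate 1 of either genotype), U5 day 25 0.32 to 0.59, U1 mean -0.32 to -0.19; U1 in controls of days 6, 9 and 25 0.46 to 0.88, 0.56 to 1.01 and -0.96 to 0.06; changes of U2 on days 3 and 9 -0.80 to -0.48 and -0.63 to -0.45, of U4 on days 3, 6, 9 and 11 -1.19 to -0.58, -1.23 to -0.72, -1.19 to -0.67 and -1.10 to -0.45, and of U1 on day 9 -1.28 to -0.87; F of U1 1.2 to 3.33 and of U4 2.69 to 5.45; and copies called 5 to 8, 3 to 9, 3 to 6, 0 to 1, 3 to 6 and 0 to 2 on days 1, 6, 9, 11, 25 and over the mean.

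Scaling moved the whole table: the median log2 difference of all features on day 6 was 0.14 with TMM, 0.24 with library totals, 0.05 with median ratios and 0.28 outside miRNAs, and 59.8, 73.6, 44.3 and 76.9% of the calls were higher. On day 9, 67.4, 49.9, 60.2 and 52% were, and on day 25 51.2, 38.7, 51.3 and 32.9%. At 1 to 32 reads per library U6, and at 2 to 94 reads U1, differences of a size seen for U5 were hard to detect.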

Other observations

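The libraries titled none, which carry no further description in the labels used here, gave 1067 RPM of U5 in control (61 reads) and 1526 RPM in Dnmt1 KO (15 reads), and 630 and 712 RPM of U2. In the 30 time course libraries titled R1, U5 ranged from 862 to 4190 RPM, U2 from 194 to 566 RPM and U4 from 7.18 to 42.4 RPM, the last below the range of 16.1 to 118 RPM in the libraries without that suffix at both ends.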
